A study of Mus musculus with 4 samples.

Results

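The genes described here encode parts of the contractile actin apparatus: smooth muscle actin (Acta2) and cytoplasmic gamma-actin (Actg1), the tropomyosins Tpm1, Tpm2, Tpm3 and Tpm4, the transgelins Tagln and Tagln2, the myosin light chain Myl9 and the actin cross-linker alpha-actinin 1 (Actn1). They were chosen by symbol, as every probe set that the platform annotation assigns to exactly 1 of these 10 genes, which gave 26 of 45037 probe sets that are no controls. A probe set is a group of short probes against 1 transcript, and its signal is a linear intensity. Symbols named 34945 probe sets and 18193 genes uniquely, and none of the 932 probe sets with several symbols named a member. The genes were put together with the differences between the same arrays already known, so their own fold changes and adjusted p-values below are a description.

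Mature livers of strain C57BL/6J gave the RNA for 2 arrays at 48 h after partial hepatectomy, in which some lobes are cut away and the rest grows back, and for 2 arrays at 48 h after a sham operation. The design text calls the arrays of a group biological duplicates. The sources used here give neither age, sex nor the extent of resection, and do not say whether an array held RNA of 1 mouse or of a pool. The p-values therefore reflect the spread between these arrays, drawn in part from other probe sets, and not that between a known number of mice. With so few arrays no value is precise. The groups shared strain and tissue and, by their labels, differed in the operation alone.

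Actin filaments and myosin generate contractile force. Tropomyosins lie along the filament and govern which other proteins reach it, transgelins bind and stabilise it, regulatory light chains switch myosin on when phosphorylated, and alpha-actinins cross-link neighbouring filaments. In liver, smooth muscle actin and transgelin mark the muscle of vessel walls and the myofibroblasts that arise from stellate cells and portal fibroblasts, whereas the cytoplasmic actins and some tropomyosins are found in most cell types, including hepatocytes.

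Transcripts of the contractile apparatus were higher after hepatectomy in most of the 10 genes. The signal of Acta2 averaged 1059.7 ± 34.2 in hepatectomy livers and 346.7 ± 79.6 in sham livers (SD, n = 2 arrays each). Each gene was represented by its brightest tested probe set, and a gene was called where limma, fitted across all 27022 probe sets that passed a filter on dim signals, gave a Benjamini-Hochberg adjusted p under 0.05. By this rule 7 of 10 genes were called higher (Acta2, Tagln, Tagln2, Tpm4, Actg1, Tpm2 and Tpm1), and 0 were called lower at either an adjusted or an unadjusted p under 0.05. Over all 12560 genes tested, 4.67% were called, 3.57% higher and 1.09% lower. Both hepatectomy arrays lay above both sham arrays in 9 of the 10 genes, an order found in 28.1% of all genes tested. The median log2 fold change was 1.13 over the 10 genes and 0.025 over all genes tested. In whole liver, more cells that express a gene and more of its RNA per cell cannot be told apart.

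**Figure D1:**
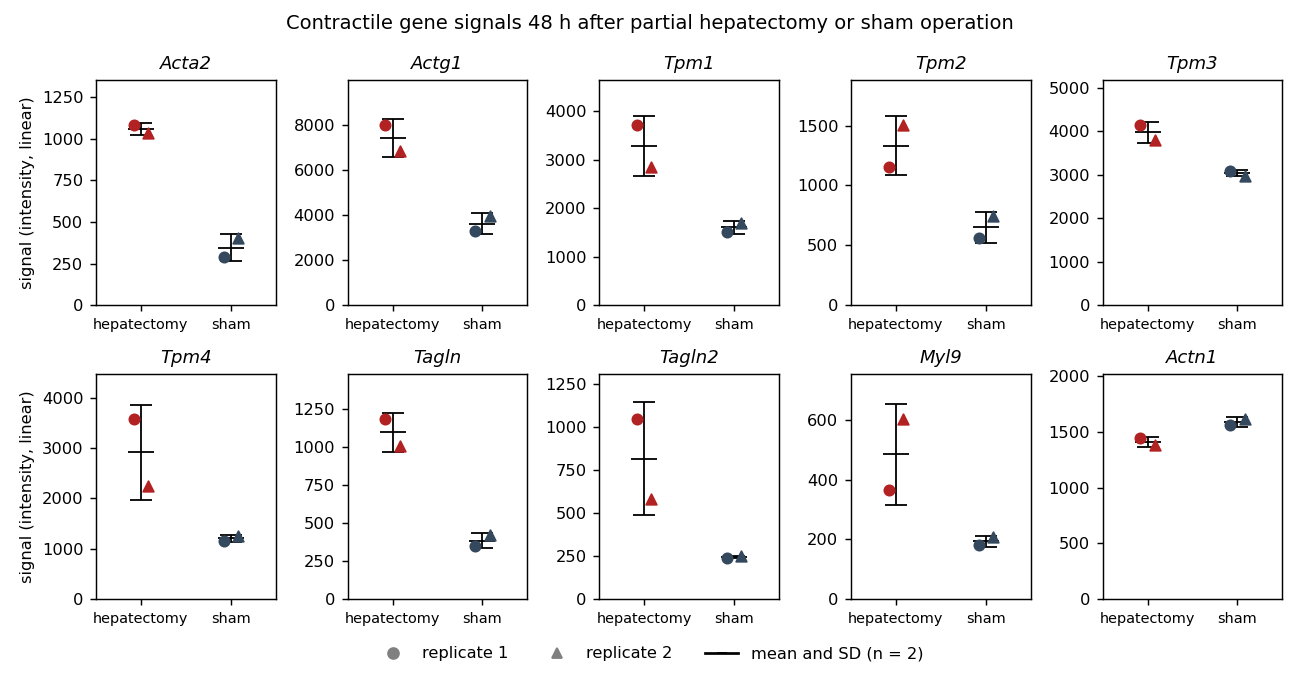
Signal (linear intensity, 1 axis per gene, each starting at 0) of the probe set that stands for each gene on the 2 hepatectomy and the 2 sham arrays, with the mean and SD of each group. In every gene except Actn1 both hepatectomy arrays lie above both sham arrays, and hepatectomy replicate 1 stands far above replicate 2 in Tagln2 and Tpm4 but below it in Myl9 and Tpm2.

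Leaving out an array leaves a group with a lone array, which is assumed to vary like the other group, so the spread then comes from the other pair and limma's prior alone. Over all 27022 probe sets, 341 were called without sham replicate 1 and 479 without sham replicate 2, against 1032 without hepatectomy replicate 1, 2012 without hepatectomy replicate 2 and 916 over 4 arrays. Calls in such a fit therefore depend on which pair gives the spread. The call of a single gene need not move with these totals, and the fold is given beside it. Without sham replicate 1 only Actg1 was called, without sham replicate 2 only Acta2, Actg1 and Tagln. The log2 fold change of Acta2 was 1.38 and 1.84 in these fits, that of Tagln2 1.62 and 1.67, and that of Tpm4 1.17 and 1.29. Without limma's mean-variance trend 0 of the 10 genes and 258 of all 27022 probe sets were called. At an unadjusted p under 0.05 there were 8 of the 10 genes. Without the filter on dim signals only Acta2 and Tagln were called, and 308 of all 45037 probe sets.

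Promoter sequences are shown because many genes of smooth muscle contraction are known to be controlled by serum response factor, which binds the CArG box, and some by TEAD factors, which bind the letters CATTCC. RefSeq windows (GRCm38.p6) were found for 9 of the 10 genes, with 2 windows for Tpm3 and none listed for Tagln, and the 250 bases before each transcript start were searched on both strands. Each line runs 5′ to 3′ along the gene's strand, and capitals mark a CArG box, a CArG box with 1 base off, or CATTCC in either orientation (GGAATG on the other strand).
Acta2: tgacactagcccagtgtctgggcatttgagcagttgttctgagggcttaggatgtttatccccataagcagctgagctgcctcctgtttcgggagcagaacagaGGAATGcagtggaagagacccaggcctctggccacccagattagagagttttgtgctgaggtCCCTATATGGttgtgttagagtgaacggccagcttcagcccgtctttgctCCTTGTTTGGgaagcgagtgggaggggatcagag
Actg1: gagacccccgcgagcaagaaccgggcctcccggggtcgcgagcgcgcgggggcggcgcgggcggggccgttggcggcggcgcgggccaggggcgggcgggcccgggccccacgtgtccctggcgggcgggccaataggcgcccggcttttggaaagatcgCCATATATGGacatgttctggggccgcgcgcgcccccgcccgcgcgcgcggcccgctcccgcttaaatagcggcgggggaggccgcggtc
Myl9: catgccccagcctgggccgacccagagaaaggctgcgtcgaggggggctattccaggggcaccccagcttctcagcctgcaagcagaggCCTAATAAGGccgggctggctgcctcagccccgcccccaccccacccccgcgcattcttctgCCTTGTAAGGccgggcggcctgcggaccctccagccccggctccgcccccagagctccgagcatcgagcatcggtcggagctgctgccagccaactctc
Tpm1: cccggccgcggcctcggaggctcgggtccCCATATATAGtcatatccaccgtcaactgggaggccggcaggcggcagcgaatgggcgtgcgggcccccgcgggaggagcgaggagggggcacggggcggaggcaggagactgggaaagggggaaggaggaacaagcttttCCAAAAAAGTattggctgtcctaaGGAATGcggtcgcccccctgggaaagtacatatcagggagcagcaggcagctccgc
Tagln2: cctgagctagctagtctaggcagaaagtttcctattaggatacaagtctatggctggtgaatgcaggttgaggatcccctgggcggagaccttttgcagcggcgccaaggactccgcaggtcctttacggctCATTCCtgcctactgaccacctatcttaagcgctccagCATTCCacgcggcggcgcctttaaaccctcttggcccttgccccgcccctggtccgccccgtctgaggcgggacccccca

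The Acta2 window lies at chr19:34255374-34255623 on the minus strand, that of Actg1 at chr11:120348496-120348745 (minus), that of Myl9 at chr2:156775214-156775463 (plus), that of Tpm1 at chr9:67049214-67049463 (minus) and that of Tagln2 at chr1:172499996-172500245 (plus). Actg1 held the CArG box CCATATATGG, which begins 90 bases before the start, and Myl9 held CCTAATAAGG, which begins 161 bases before it. Acta2 held a pair of boxes with 1 base off, CCCTATATGG at 84 and CCTTGTTTGG at 34 bases before the start. Tpm1 held CCATATATAG at 221 and CCAAAAAAGT at 80 bases before the start. An exact CArG box was present in 2 of the 9 genes, or 2 of their 10 windows, and in 1.47% of 32851 promoter windows of that length. With 1 base off allowed, a setting chosen after the sequences were seen, 6 of the 10 windows held a match, as did 18.6% of all windows. These belonged to 5 of the 9 genes: Acta2, Actg1, Myl9, Tpm1 and Tpm3. Tpm3, which was not called, held matches in both of its windows, which are not printed here. CATTCC in either orientation was present in Acta2, Tpm1 and, at 2 places, Tagln2, and in 12.6% of all windows. The windows of Tpm2, Tpm4 and Actn1 held none of these letters. A match is a description of the sequence and says nothing of binding in these livers.

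Smooth muscle actin and its partner transgelin had similar profiles over the 4 arrays. Acta2 had signals of 1084 and 1036 in hepatectomy livers, against 290.4 and 403 in sham livers. The groups did not overlap, the hepatectomy arrays were close to each other, and the larger gap was between the sham arrays. The log2 fold change of Acta2, taken after an offset was added to every signal, was 1.61 ± 0.22 (SE; adjusted p = 0.00834 by limma). Its probe set, 1416454_s_at, carries the suffix of sets that can match several transcripts, and actin genes are closely related in sequence, so part of the signal may come from another actin. Tagln, which encodes the smooth muscle protein SM22, had signals of 1188 and 1008 in hepatectomy livers, against 350.0 and 420.3 in sham livers. Its groups were also apart, and its log2 fold change was 1.49 ± 0.21 (adjusted p = 0.00827 by limma). Acta2 and Tagln were the members called without the filter on dim signals, and without sham replicate 1 they were at 1.38 ± 0.27 and 1.36 ± 0.28 (adjusted p = 0.0734 and 0.0818).

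Myl9, the regulatory light chain of smooth muscle and non-muscle myosin, had signals of 365 and 604 in hepatectomy livers, against 181 and 207 in sham livers. The groups did not overlap, but hepatectomy replicate 2 stood well above replicate 1. The log2 fold change was 1.24 ± 0.29 and was not called (adjusted p = 0.0625 by limma). Leaving out hepatectomy replicate 1 gave 1.60 ± 0.29, which was called (adjusted p = 0.00664). Leaving out hepatectomy replicate 2 gave 0.89 ± 0.30, which was not (adjusted p = 0.111).

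Among the actins, cytoplasmic gamma-actin was higher and beta-actin was not called. Actg1 had signals of 7988 and 6822 in hepatectomy livers, against 3281 and 3954 in sham livers. Each hepatectomy array lay far above each sham array, with a log2 fold change of 1.03 ± 0.15 (adjusted p = 0.0092 by limma), and the call held with each array left out in turn (adjusted p from 0.00219 to 0.0446). It was lost without the filter and without the trend. Its only probe set, 1415779_s_at, can also match several transcripts. Actb, the other cytoplasmic actin, had signals of 13123 and 11080 in its brightest probe set in hepatectomy livers, against 12583 and 12155 in sham livers, and these overlapped. Its log2 fold change was -0.036 ± 0.11 (adjusted p = 0.917 by limma). The second Actb probe set differed by 0.23 ± 0.11 and was not called either (adjusted p = 0.371). Of the control probe sets for Actb, the one near the 5′ end had signals of 4714 and 5524 in hepatectomy livers, against 3311 and 4241 in sham livers, and the middle one had 6331 and 6871 in hepatectomy livers, against 4535 and 5658 in sham livers. The control near the 3′ end had 11310.4 and 11169 in hepatectomy livers, against 9114 and 9944 in sham livers. In these 3 controls and in the second Actb probe set both hepatectomy arrays lay above both sham arrays, unlike in the brightest Actb probe set. The ratio of the 3′ to the 5′ control was 2.40 and 2.02 in hepatectomy livers, against 2.75 and 2.35 in sham livers. The part of RNA quality in these control signals was not tested.

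Of the 4 tropomyosin genes, Tpm1, Tpm2 and Tpm4 were called higher and Tpm3 was not, and differences between these genes were not tested. Tpm4, whose main product is a short tropomyosin of non-muscle cells, had signals of 3586 and 2245 in hepatectomy livers, against 1155 and 1257 in sham livers. The groups were apart although hepatectomy replicate 1 exceeded replicate 2, and the log2 fold change was 1.23 ± 0.23 (adjusted p = 0.0265 by limma). It was 0.89 ± 0.20 and still called without hepatectomy replicate 1 (adjusted p = 0.023).

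Tpm1, which yields muscle and non-muscle isoforms by splicing, had signals of 3715 and 2848 in hepatectomy livers, against 1511 and 1699 in sham livers. Its groups did not overlap and its log2 fold change was 1.02 ± 0.17 (adjusted p = 0.0202 by limma). A second probe set of Tpm1, 1423049_a_at, had signals of 786 and 572 in hepatectomy livers, against 194 and 348 in sham livers. That set differed in the same direction by 1.34 ± 0.31 without being called (adjusted p = 0.0627).

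Tpm2, the beta-tropomyosin of muscle and fibroblasts, had signals of 1156 and 1506 in hepatectomy livers, against 561 and 741 in sham livers. Here hepatectomy replicate 2 was the higher array, as in Myl9. The log2 fold change was 1.02 ± 0.22, just inside the threshold (adjusted p = 0.0484 by limma), and the call was lost without any 1 of the other 3 arrays, while it held without hepatectomy replicate 1 (1.21 ± 0.24, adjusted p = 0.0106). Of its other tested probe sets, 1419738_a_at differed by 0.90 ± 0.24 (adjusted p = 0.092) and 1449577_x_at, which can cross-hybridise, by -0.20 ± 0.30 (adjusted p = 0.814). The mean over the Tpm2 probe sets was 0.57 and not called.

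Tpm3, a gene with short isoforms in most cell types, had signals of 4144 and 3796 in hepatectomy livers, against 3083 and 2979.95 in sham livers. The groups did not overlap, but the log2 fold change of 0.39 ± 0.13 was the smallest positive one of the 10 genes and was not called (adjusted p = 0.186 by limma). Probe sets 1427567_a_at and 1436958_x_at of Tpm3 differed by 0.66 ± 0.26 and 0.34 ± 0.14, also without a call. The dim set 1449997_at differed by -0.23 ± 0.37.

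Tagln2, the transgelin found in many cell types, showed the largest log2 fold change of the 10 genes together with one of the widest gaps between hepatectomy arrays. It had signals of 1049 and 582 in hepatectomy livers, against 239 and 248 in sham livers. Even the lower hepatectomy array stood far above the sham arrays, which were close together. The log2 fold change was 1.65 ± 0.29 (adjusted p = 0.0233 by limma). Leaving out hepatectomy replicate 1 gave 1.23 ± 0.27 (adjusted p = 0.0242). Leaving out hepatectomy replicate 2 gave 2.07 ± 0.26 (adjusted p = 0.00042). Leaving out sham replicate 1 gave 1.62 ± 0.39 and leaving out sham replicate 2 gave 1.67 ± 0.40, folds close to that over 4 arrays but not called (adjusted p = 0.143 and 0.106).

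Actn1 was the exception. It had signals of 1442 and 1380.0 in hepatectomy livers, against 1558 and 1619 in sham livers. Both hepatectomy arrays lay below both sham arrays, an order found in 23.2% of all genes tested, and the log2 fold change was -0.17 ± 0.16 (adjusted p = 0.662 by limma). The other probe sets of Actn1, 1427385_s_at and 1452415_at, differed by 0.072 ± 0.35 and -0.12 ± 0.29, with overlapping groups.

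Over all probe sets of the 10 genes, 18 of 26 passed the filter on dim signals, and all 18 would have passed on the sham arrays alone. Of these 18, 7 were called higher, 1 in each called gene, and 13 had an unadjusted p under 0.05. At that unadjusted level, 1564 of all 12560 genes tested were higher and 938 lower by limma. Of all 27022 probe sets 3.39% were called, 2.51% higher and 0.877% lower. In 13 the hepatectomy arrays lay above the sham arrays, in 2 below, and in 3 the groups overlapped, where 24.4% of all probe sets tested lay above and 23.3% below. The other 8 probe sets were dim. In 5 of them every array lay under 20.4, the highest signal of 24 bacterial control probe sets, and in 3 of them, 1 each of Acta2, Tpm1 and Tpm3, hepatectomy replicate 1 alone lay above it.

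**Figure D2:**
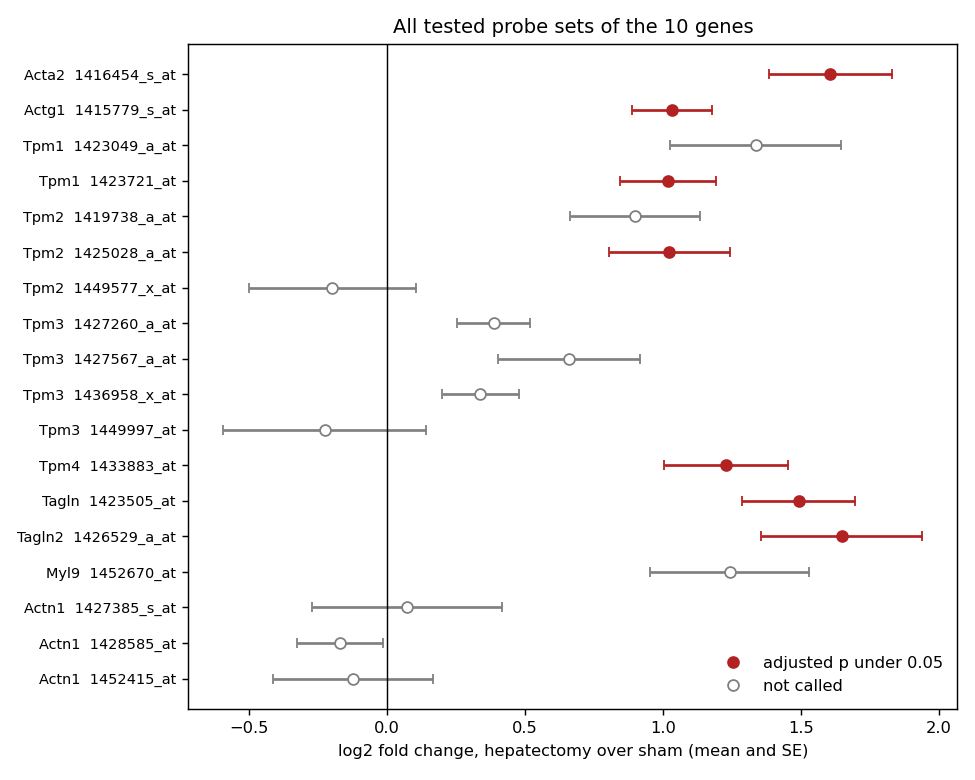
Log2 fold change, hepatectomy over sham, with its standard error for the 18 tested probe sets of the 10 genes, from limma on 2 arrays per group. Filled points are the 7 probe sets called at an adjusted p under 0.05, and the open points to the left of 0 are single probe sets of Tpm2, Tpm3 and Actn1 (1449577_x_at, 1449997_at, 1428585_at and 1452415_at).

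The arrays were not equal in other tissue markers. Hepatectomy replicate 1 carried transcripts of adrenal cortex and fat: 6 measured adrenal genes summed to 19059.7 on it and to 224 on hepatectomy replicate 2, against 239 and 206 on the sham arrays, and 5 measured fat cell genes summed to 2489.7 and 281, against 155 and 68.4. Of the adrenal genes, Nr5a1 was dim and went the other way, at 18.2 and 20.6 in hepatectomy livers, against 36.8 and 31.7 in sham livers. Adipoq of fat was also above sham on hepatectomy replicate 2 (56.3, against 4.0 and 6.3), whereas Retn was not (13.8, against 13.0 and 19.1). A fit without hepatectomy replicate 1 therefore keeps the Adipoq signal of replicate 2. The part of these tissues in the signals of the contractile genes was not tested in another way than by leaving out hepatectomy replicate 1. Without it, 8 of the 10 genes were called higher, among them all 7 called over 4 arrays, while 1032 of all probe sets were called. Without that array the log2 fold change was lower than over 4 arrays for Tagln2 (1.23, against 1.65), Tpm4 (0.89, against 1.23), Tpm1 (0.83, against 1.02), Tagln (1.37, against 1.49), Actg1 (0.92, against 1.03), Tpm3 (0.32, against 0.39), Acta2 (1.57, against 1.61) and Actn1 (-0.20, against -0.17). It was higher for Myl9 (1.60, against 1.24) and Tpm2 (1.21, against 1.02). Without hepatectomy replicate 2, 6 were called higher.

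**Figure D3:**
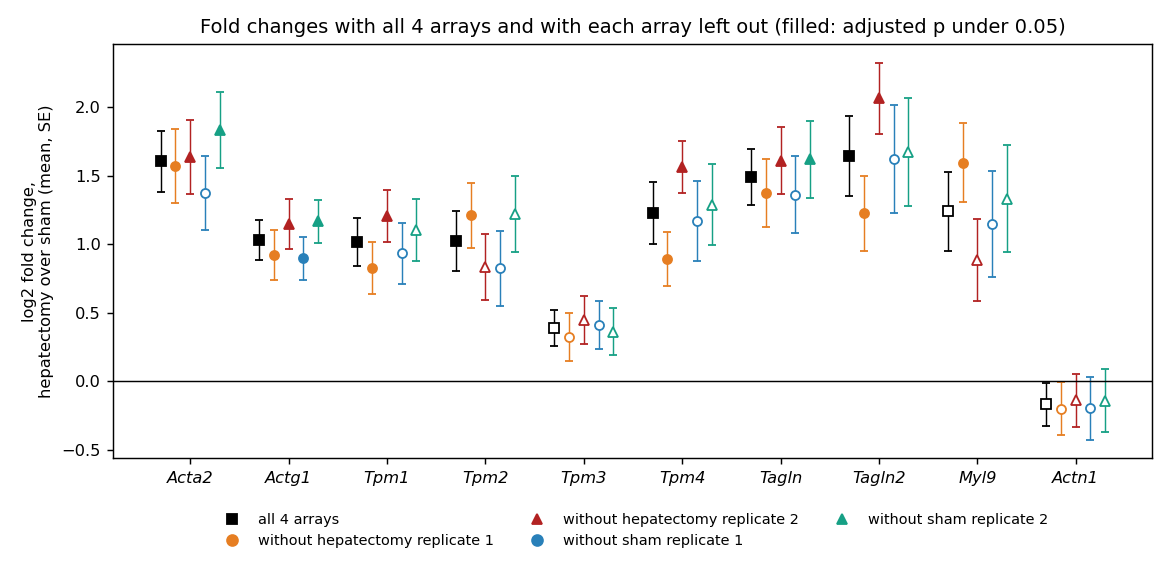
Log2 fold change with its standard error for each of the 10 genes from all 4 arrays (black squares) and with each array left out. Filled symbols have an adjusted p under 0.05, which Actg1 keeps throughout, and the values for Tagln2, Tpm4, Tpm1, Tpm2 and Myl9 move most with the choice of hepatectomy array.

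Lists of markers described the cells that could hold these transcripts. Beside the unadjusted counts below, 1564 of all 12560 genes tested were higher and 938 lower at an unadjusted p under 0.05 by limma. Of 7 markers of vascular smooth muscle, all measured, the summed signal was 542 to 638 in hepatectomy livers and 322 to 328 in sham livers, and 0 were called, with 2 higher at an unadjusted p under 0.05. Cnn1, the calponin of differentiated smooth muscle, lay under the bacterial control level on every array, and Myh11, its myosin heavy chain, had signals of 121 and 161 in hepatectomy livers, against 95.2 and 85.5 in sham livers (log2 fold change 0.58 ± 0.30, adjusted p = 0.388 by limma). The 10 stellate cell markers were all measured and summed to 5854 to 6409 in hepatectomy livers and 6957 to 9346 in sham livers. By limma 0 of them were called, with 1 higher and 3 lower at an unadjusted p under 0.05. Among them Des, an intermediate filament gene, had signals of 179 and 142 in hepatectomy livers, against 62.1 and 82.9 in sham livers (1.06 ± 0.31, adjusted p = 0.125), whereas Lrat, which stores retinoid in quiescent stellate cells, had 482 and 919 in hepatectomy livers, against 1009.6 and 1257 in sham livers. The 8 portal fibroblast markers summed to 1246 to 1439 in hepatectomy livers and 968 to 1219 in sham livers with 0 called and 0 at an unadjusted p under 0.05, and Gli1 lay under the control level throughout.

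The 5 mesothelial markers summed to 436 to 486 in hepatectomy livers and 261 to 396 in sham livers, and the 5 measured of 7 cholangiocyte markers to 831 to 1414 in hepatectomy livers and 548 to 621 in sham livers. None of either list was called, with 1 and 3 genes higher at an unadjusted p under 0.05. The part of these cells in the higher signals of the contractile genes was not tested. Skeletal muscle markers were dim: 9 genes summed to 154 to 158 in hepatectomy livers and 184 to 189 in sham livers, with Tnnt3, Myh4 and Acta1 under it throughout. The 7 measured neutrophil and platelet markers summed to 4013 to 10369 in hepatectomy livers and 731 to 732 in sham livers. S100a8 and S100a9, both called higher, made up most of these hepatectomy sums. S100a8 had signals of 4173 and 1204 in hepatectomy livers, against 177 and 110 in sham livers. S100a9 had 5649 and 2316 in hepatectomy livers, against 254 and 236 in sham livers. Of the platelet genes, Pf4 was higher without a call, and the groups of Ppbp and Gp9 overlapped. Ly6g had no probe set of its own, and Mpo and Itga2b were under the control level throughout. The part of neutrophils and platelets in the higher signals of the contractile genes was not tested. Macrophage markers (7 genes) summed to 15477 to 15939 in hepatectomy livers and 14629.6 to 14865 in sham livers, with Marco called higher and Csf1r lower. Marco had signals of 3194 and 1670 in hepatectomy livers, against 241 and 172 in sham livers, and weighed heavily in the hepatectomy sums. On both hepatectomy arrays Marco, Cd68 and Cd5l lay above sham, Clec4f, Adgre1 and Csf1r lay below, and Vsig4 overlapped. Endothelial markers (7 genes) summed to 5930.4 to 6120.0 in hepatectomy livers and 6681 to 6682 in sham livers with 0 called and 0 at an unadjusted p under 0.05. The hepatocyte genes (6 measured of 7, among them Alb) summed to 79211 to 86468 in hepatectomy livers and 80481 to 92498 in sham livers, again with 0 at either level.

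**Figure D4:**
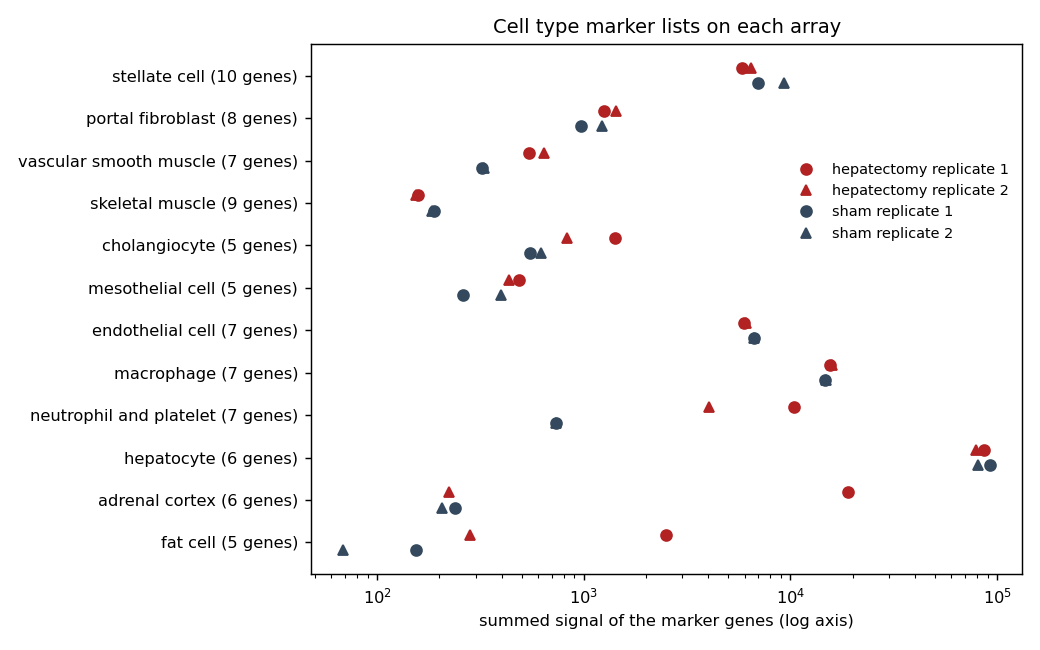
Summed signal (log axis) of 12 marker lists on each of the 4 arrays, hepatectomy above sham within each list. The sums of adrenal cortex and fat cell genes stand out on hepatectomy replicate 1. The vascular smooth muscle sum lies higher on both hepatectomy arrays, and the stellate cell sum lies lower on both. Single genes differed: 4 of 6 tested vascular smooth muscle genes and 5 of 10 stellate cell genes had a log2 fold change above 0. Des is in both lists.

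Other genes of the actin cytoskeleton mostly differed less. Of 107 such genes in 7 lists, 102 had a probe set of their own and 87 passed the filter, of which 3 were called higher and 0 lower, with 23 higher and 1 lower at an unadjusted p under 0.05. The called share is near that of all genes tested, 3.57% and 1.09%. At an unadjusted p under 0.05, 1564 of all 12560 genes tested were higher and 938 lower, a smaller share on the higher side than in these lists. Their median log2 fold change was 0.20, with 60 of 87 above 0, against 6649 of 12560 among all genes tested. The 3 called genes were Csrp1, Ezr and Coro1c.

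Csrp1, a LIM protein of smooth muscle that binds zyxin and alpha-actinin, had signals of 318 and 329 in hepatectomy livers, against 132 and 128 in sham livers. Both groups were tight and apart (log2 fold change 1.26 ± 0.24, adjusted p = 0.033 by limma). Ezr, which encodes ezrin, a linker of actin to the cell membrane, had signals of 392 and 288 in hepatectomy livers, against 113 and 149 in sham livers (1.31 ± 0.28, adjusted p = 0.0479). Its call was lost without hepatectomy replicate 1 (1.10 ± 0.34, adjusted p = 0.11). Coro1c, a coronin that binds actin filaments and the Arp2/3 complex, had signals of 2483 and 2697 in hepatectomy livers, against 1270.0 and 1629 in sham livers (0.84 ± 0.17, adjusted p = 0.0409). All 3 lost their calls without sham replicate 1 and without sham replicate 2, with log2 fold changes of 1.28 and 1.24 for Csrp1, 1.13 and 1.5 for Ezr, and 0.67 and 1.02 for Coro1c. The call of Coro1c was also lost after median centring (0.76, adjusted p = 0.117) and that of Ezr after quantile normalization (1.21, adjusted p = 0.054). With the mean over a gene's probe sets Csrp1 and Coro1c were not called (adjusted p = 0.0685 and 0.105).

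In the smooth muscle contractile list, 1 of 13 tested genes was called, with 5 higher at an unadjusted p under 0.05, and the median was 0.47. Myh9, the main non-muscle myosin heavy chain, differed by 0.20 ± 0.17 in its brightest probe set, with overlapping groups (adjusted p = 0.63 by limma). Its other tested probe sets differed by 0.46 ± 0.22, 0.63 ± 0.36 and 0.26 ± 0.15. In each of these both hepatectomy arrays lay above both sham arrays, without a call (adjusted p = 0.357, 0.446 and 0.449 by limma). A dim Myh9 set that was not tested went the other way (14.8 and 11.9, against 35.2 and 21.1 in sham livers). Of 19 tested cross-linkers and adhesion genes 1 was called and the median was 0.30. Of 24 tested genes of actin turnover 1 was called and the median was 0.16. Cfl1, the filament-severing cofilin, had signals of 12212 and 10969.7 in its brightest probe set in hepatectomy livers, against 12016 and 11012 in sham livers. These groups overlapped. The other Cfl1 probe set had 4337 and 4078 in hepatectomy livers, against 3322 and 3856 in sham livers. Its groups were apart, with a log2 fold change of 0.23 ± 0.14 that was not called (adjusted p = 0.459 by limma).

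The list of serum response factor, its coactivators and some targets held none of the 10 genes. Of its 12 tested genes 0 were called, with 3 higher and 1 lower at an unadjusted p under 0.05, and the median was 0.23. Fos had the highest fold, with signals of 3202 and 810 in hepatectomy livers, against 331 and 254 in sham livers (2.44 ± 0.53, adjusted p = 0.0515 by limma). Ccn2 had the lowest, with 673 and 346 in hepatectomy livers, against 907 and 849 in sham livers (-0.85 ± 0.30, adjusted p = 0.203). Srf itself had signals of 154 and 137 in hepatectomy livers, against 74.0 and 134 in sham livers, with a log2 fold change of 0.51 ± 0.34 (adjusted p = 0.521 by limma). Of 18 troponin and sarcomere genes 6 passed the filter, and 0 were called at either level, with a median of 0.047. Besides Actb, the smooth muscle gamma-actin Actg2 was the only other actin outside the 10 genes to pass the filter, and its signals of 42.8 and 133 in hepatectomy livers, against 16.1 and 45.3 in sham livers, overlapped.

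**Figure D5:**
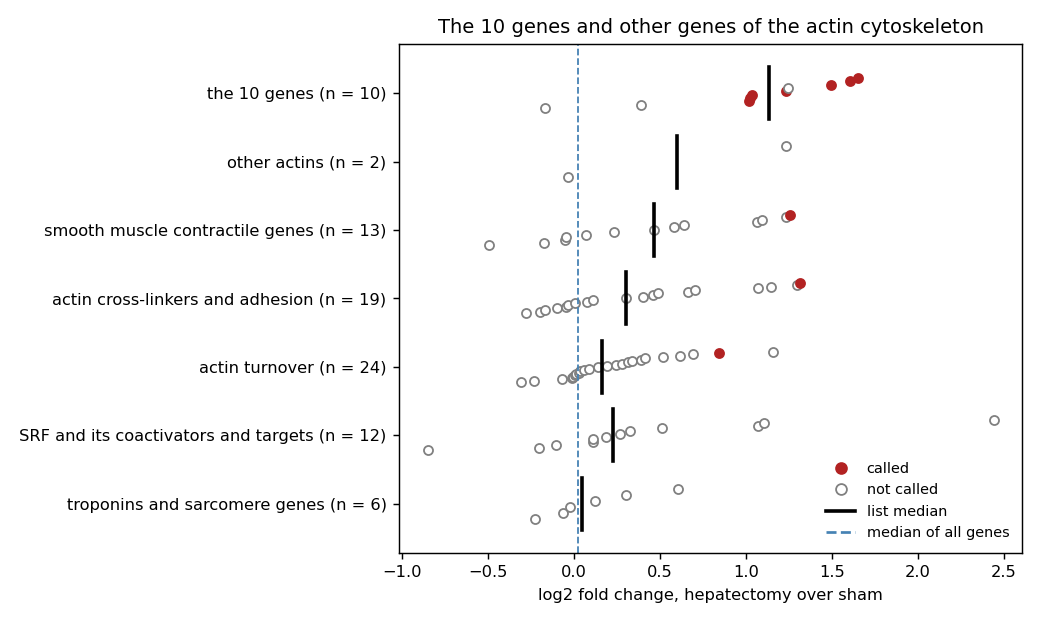
Log2 fold change, hepatectomy over sham, of each tested gene of the 10 and of 6 lists of other actin cytoskeleton genes, 1 point per gene, with each list's median (bar) and the median of all genes tested (dashed, 0.025). Called genes are filled: 7 of the 10, and Csrp1, Ezr and Coro1c elsewhere.

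Likeness of profiles was measured over the 4 arrays as the root mean square difference between log2 values, each gene's own mean removed. Outside the 10 genes, the 5 genes nearest to Acta2 among 12550 profiles were Smc4, a condensin subunit (0.051), Emilin1, a glycoprotein of elastic fibres (0.071), the transcriptional repressor gene Bcl6b (0.071), the histone acetyltransferase gene Hat1 (0.076) and Spc25, a kinetochore component (0.082). Tagln, at 0.11, was the 15th nearest of all genes to Acta2, Actg1 the 243rd and Actn1 the 8372nd. The 5 nearest to Tagln2 were Pi16, a peptidase inhibitor gene (0.033), Lox, the lysyl oxidase that cross-links collagen and elastin (0.046), Dntt, a DNA polymerase gene of lymphoid cells (0.046), Pkm, a pyruvate kinase gene (0.072), and Cpne8, a copine gene (0.086). Tpm4 was the 57th nearest to Tagln2 and Tagln the 75th. With 4 arrays many profiles are alike, and these distances are a description.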

How the data were processed

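The authors deposited intensity values, 1 signal per probe set and array. The submitters' processing notes name GCOS 1.4 as the software, but nothing used here gives its settings or when arrays were scanned, and a batch could not be tested. The mean after trimming 2% at each end was 500.0 on every array, so each array was scaled to a common mean before deposit. Median absolute log2 differences were 0.273 between hepatectomy arrays, 0.234 between sham arrays and 0.299 to 0.344 across groups.

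The 64 control probe sets were left out. Before taking log2, 8.57 was added to each signal (the 20th percentile over all arrays). Only probe sets whose log2 values averaged at least the 40th percentile of such means (5.09) were kept, 27022 in all. The groups were compared, hepatectomy minus sham, by lmFit and eBayes with a mean-variance trend in limma 3.58.1 (R 4.3.3), with 2-sided p-values, with Benjamini-Hochberg adjustment over all of them (2 residual and 6.02 prior degrees of freedom). The code was tested on simulated data. Fold changes understate dim genes. The 10 genes, the lists, their tests and alternatives were chosen with earlier results of these data known. The level of 20.4 from bacterial controls and the search allowing 1 base off in the CArG box were also such choices. The named genes were all 10, up to 4 called genes of each list, Actb, Cnn1, Myh11, Des, Srf, Myh9 and Cfl1, the nearest profiles, and markers beside a result. Fos and Ccn2, the highest and lowest folds of the serum response factor list, were added. Of 188 listed genes, 177 had a probe set with 1 symbol. Of the 7 lists of other cytoskeleton genes, 1 enters the summed counts only and is not reported here by itself.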

Additional observations from a re-analysis of the deposited data

How the results depend on the processing

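Under 15 alternative settings the log2 fold changes of the 10 genes kept their sign. Without the filter on dim signals 2 of the 10 genes, 2 of their probe sets and 0 of the other cytoskeleton genes were called (9, 14 and 27 by limma at an unadjusted p under 0.05). Without the trend the counts were 0, 0 and 0 (8, 11 and 15 at an unadjusted p under 0.05). With each array left out, 1 to 8 of the 10 genes, 1 to 8 of their probe sets and 0 to 18 other cytoskeleton genes were called, with 18 without hepatectomy replicate 2 and 0 without sham replicate 1 (16 at an unadjusted p under 0.05 by limma), where 2012 and 341 of all probe sets were called, against 916 over 4 arrays. The count of other cytoskeleton genes was 5 with the stricter filter, with robust eBayes and without probe sets ending in _s_at or _x_at, where Acta2 and Actg1 had none left, and 1 with the mean over probe sets. The cause was not tested. Both groups share replicate numbers, which nothing ties to a shared animal or day, and deviations of the arrays numbered 1 correlated at 0.10. With the replicate block 8 of the 10 genes, 10 probe sets and 15 other cytoskeleton genes were called, beside 1943 of all 27022 probe sets. None of the reversed values was called: Cfl1 at -0.078 after median centring and -0.068 and -0.054 without hepatectomy replicate 1 and without sham replicate 2, Myh9 at -0.058 without hepatectomy replicate 1, and Actb at 0.086 without hepatectomy replicate 2 and 0.095 with the mean over probe sets. With each array left out, Cfl1 ranged from -0.068 to 0.086, Myh9 from -0.058 to 0.47 and Actb from -0.16 to 0.086. Median centring moved the median of all probe sets to -0.085 and lost the calls of Tpm2 and Coro1c.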
